A study of Homo sapiens with 4 samples.

Results

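The 68 genes described here encode the cyclins, the cyclin-dependent kinases (CDKs) and the CDK inhibitors, together with the CDC25 phosphatases, the kinases WEE1 and PKMYT1, the retinoblastoma pocket proteins and the transcription factors E2F1 to E2F8. The rule goes by gene name and uses no measured value, although it was set with earlier results of these data known, and it draws on 23228 genes listed for each library. CDK11A and CDK11B fall outside the name rule and are not members. Of the 68 members, 67 had at least 1 read and 65 passed the filter on low counts. The 3 others were CDK3, with 0 reads in every library, and CCNI2 and CDK15, with 16 reads or fewer in each.

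RNA sequencing compared MDA-MB-231 cells carrying an shRNA against KDM1A with cells carrying a control shRNA, with 2 libraries in each group. MDA-MB-231 is a long-established human breast cancer line of the triple negative class. Both groups were stem-like cells that had been sorted for ALDEFLUOR signal, a readout of aldehyde dehydrogenase activity, and kept in MammoCult medium, and both carried their shRNA stably from a lentiviral vector. The labels name a single KDM1A shRNA and no rescue, so KDM1A loss and off-target action of that hairpin cannot be told apart. Whether the 2 libraries per group were grown separately is not stated, and p-values therefore cover only library-to-library spread, which may be technical. Where a library was left out, the spread came from the other group's pair alone. A call gained or lost in that way does not show that the library left out decided it.

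Cyclins are the regulatory partners of CDKs and rise and fall in turn through the cell cycle. D cyclins with CDK4 or CDK6 start the phosphorylation of the retinoblastoma protein and its relatives, which frees E2F factors to switch on genes for DNA synthesis, and the E, A and B cyclins with CDK2 and CDK1 then drive S phase and mitosis. INK4 inhibitors block CDK4 and CDK6, CIP/KIP inhibitors bind cyclin and CDK together, and WEE1 and PKMYT1 hold CDK1 inactive until CDC25 phosphatases release it. Loss of the INK4 genes CDKN2A and CDKN2B is frequent in breast cancer lines, and KDM1A itself is a demethylase of histone H3 in the CoREST repressor complex.

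Reads in genes numbered between 23902900 and 25761937 in the KDM1A shRNA libraries and between 24250377 and 26923678 in the control libraries, and a gene at 0 reads allows a true count of up to 3, which is 0.111 to 0.126 CPM (counts scaled to the library total) and covers counting error only. KDM1A had 561 and 649 reads in the KDM1A shRNA libraries against 4660 and 4059 in the control libraries, so the targeted gene stood at 14.2% of its control level. All 20 genes listed as typical of MDA-MB-231 passed the filter on low counts. Their summed levels were 10924 and 11003 CPM in the KDM1A shRNA libraries and 10585 and 10554 CPM in the control libraries. SPARC stood at 5.92% of its control level, with 23 and 30 reads against 464 and 449. Which of those SPARC levels is usual for the line was not tested. Of 12 luminal breast genes 10 were tested, with 3 higher (KRT19, ERBB2 and GATA3) and 5 lower (TFF1, FOXA1, ERBB3, TFF3 and XBP1). These were 30% and 50%, where 27.3% of all genes were higher and 28.8% lower. The list's summed level was 723 and 737 CPM in KDM1A shRNA libraries against 654 and 672 CPM in control libraries. KRT19 alone held 361 and 376 CPM of it against 279 and 289 CPM. TFF1 had 16 and 9 reads against 55 and 49, and FOXA1 had 9 and 8 against 22 and 32. The luminal marker ESR1 was at 0 and 1 reads against 7 and 9. Of 8 leukocyte genes 3 were tested, with LCP1 higher and CD68 and CD14 lower, and their sum was 304 and 297 CPM against 260 and 258 CPM, with PTPRC at 4 and 3 reads against 2 and 2 and MS4A1 at 0 in all libraries. The part of these lists in the members' values was not tested.

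The control libraries held reads of genes that MDA-MB-231 is known to have lost. This line carries a deletion of chromosome band 9p21 that removes CDKN2A and CDKN2B, yet both control libraries held reads of both genes and the KDM1A shRNA libraries held few. The control libraries therefore go against the line's known genotype at these genes. At CDKN2A the KDM1A shRNA libraries do so to a lesser degree, with 13 and 19 reads against 323 and 329, while CDKN2B had 0 and 1. Whether any of those reads came from MDA-MB-231 cells was not tested. For these genes an effect of the KDM1A shRNA and a difference in cells between the groups' cultures cannot be told apart. Both controls hold these reads, so no library can be left out to test this, and every comparison below rests on these controls.

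Expression changed in most of the cell cycle members, and most of the changes were small. In KDM1A shRNA cells 27 of the 65 members tested were higher and 18 were lower at an edgeR adjusted p under 0.05 (Benjamini-Hochberg over all 14012 genes tested), and 20 were not called. Among all genes tested 27.3% were called higher and 28.8% lower, against 41.5% and 27.7% of the members. Members called either way made up 69.2%, where the background was 56.1%. The members' median log2 fold change was 0.04, and that of all genes was −0.00468, while the median absolute change was 0.30 for members and 0.24 for all genes. All 45 called members had groups that did not overlap in CPM, and 56 of the 65 did so whether called or not, against 77.7% of all genes. Together the members held 5182 and 5200.5 CPM in KDM1A shRNA libraries and 4785.0 and 4826 CPM in control libraries. With the libraries scaled to 11 housekeeping genes the split became 19 higher and 24 lower members, or 29.2% and 36.9%, while all genes stood at 19.6% higher and 34.9% lower under the same scaling.

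**Figure D1:**
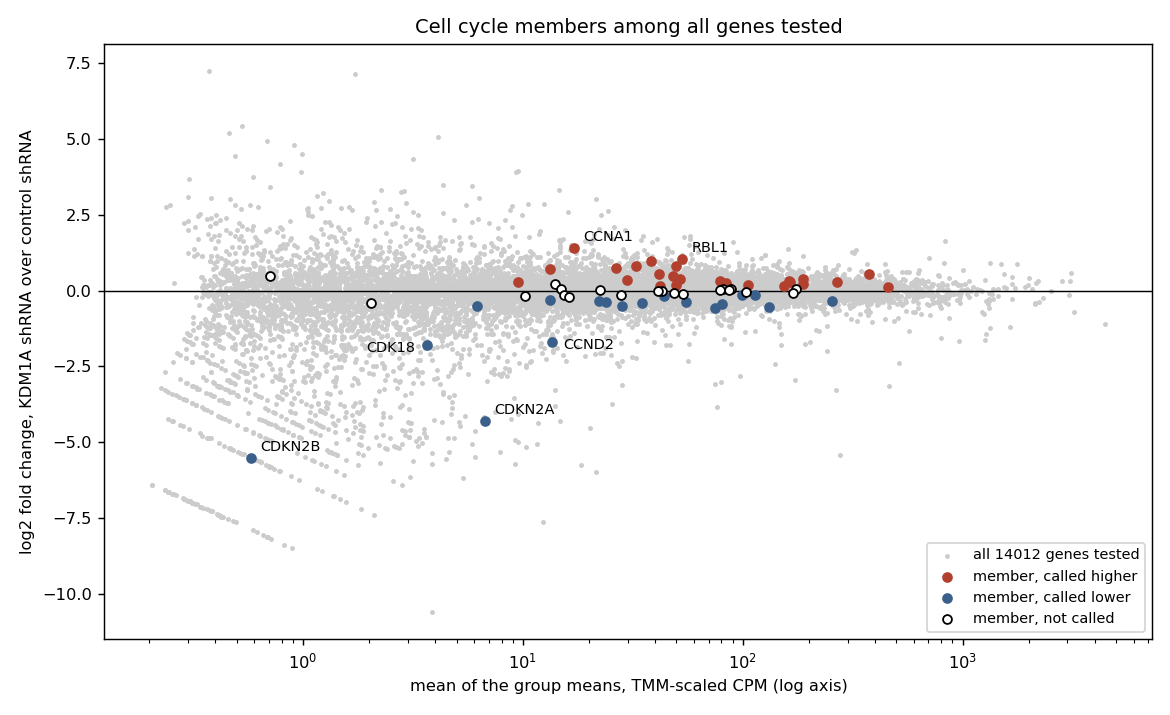
Log2 fold change (KDM1A shRNA over control shRNA) of each gene tested against the mean of its 2 group means in TMM-scaled CPM, on a log axis. Grey points are all 14012 genes, red and blue points are members called higher and lower, and open points are members not called. Most members lie within 1 log2 unit of 0, and CDKN2A and CDKN2B lie far below the rest.

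Only 2 members rose by 2-fold or more, CCNA1 and RBL1, and 4 fell by that much, CDKN2B, CDKN2A, CDK18 and CCND2. Over all genes tested, 3.07% were higher and 8.54% lower by 2-fold or more. The remaining called members changed by less than 2-fold, with 18 rises and 11 falls under 0.5 on the log2 scale. Between the 2 libraries of a group, CPM of the members with at least 100 reads differed by a median factor of 1.03 in KDM1A shRNA cells (60 members) and 1.05 in control cells (62 members), and by at most 1.16 (CDKN2D) and 1.31 (CDK18).

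**Figure D2:**
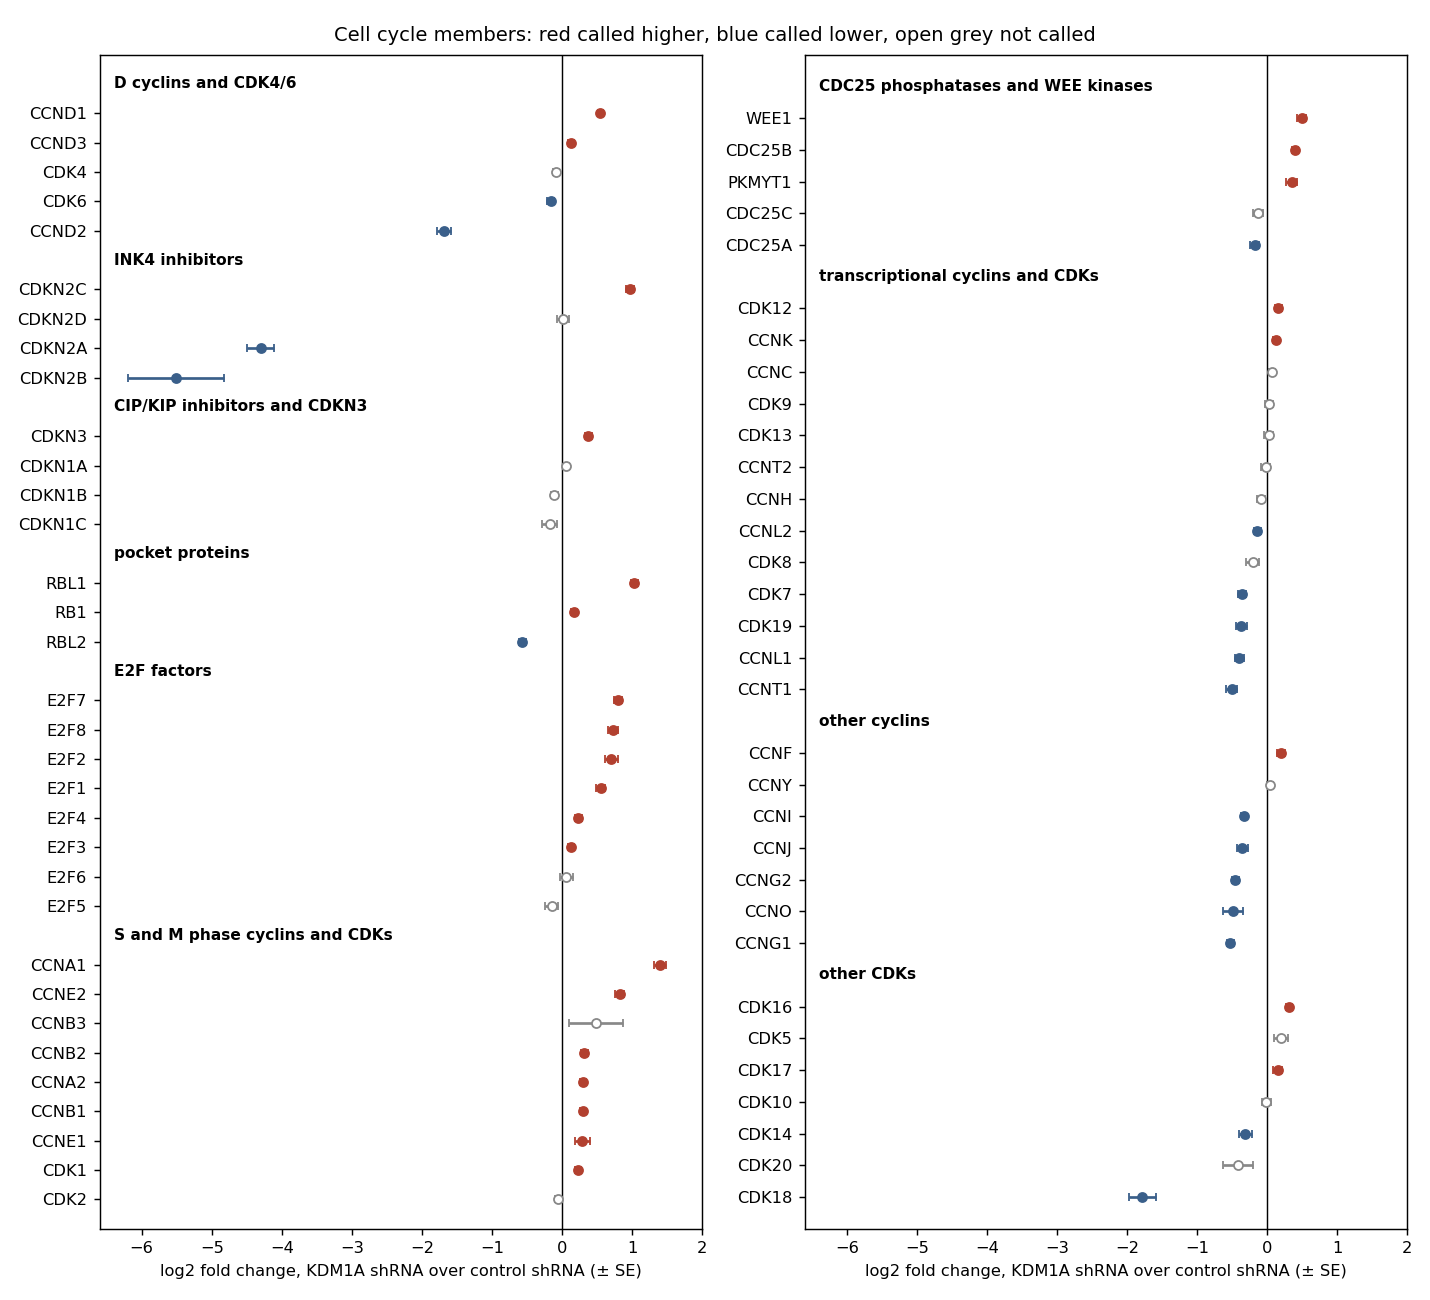
Log2 fold change, KDM1A shRNA over control shRNA, with its standard error for the 65 members tested, grouped by role. Red points were called higher, blue points lower and open grey points were not called. The E2F and S and M phase groups lie mostly to the right of 0, and the cyclins of other roles mostly to the left.

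The INK4 inhibitors, which bind CDK4 and CDK6 and keep D cyclins from activating them, moved apart from each other more than any other role group. CDKN2A (chromosome 9, 21967751 to 21995300, minus strand of GRCh37), which encodes the founding INK4 inhibitor and, in another frame, the p53 stabiliser ARF, had 13 and 19 reads in the KDM1A shRNA libraries against 323 and 329 in the control libraries. This is 0.640 ± 0.14 CPM in KDM1A shRNA cells and 12.8 ± 1.06 CPM in control cells (SD, 2 libraries each), a log2 fold change of −4.30 (SE 0.19, edgeR adjusted p = 1.3e-10). The low values came from both knockdown libraries, and the groups were far apart. Counts per gene symbol do not separate the ARF transcript from the INK4 transcript. From bulk RNA, fewer cells with a transcript and less RNA per cell cannot be told apart.

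CDKN2B, the neighbouring INK4 gene (chromosome 9, 22002902 to 22009304, minus strand of GRCh37), had 0 and 1 reads in the KDM1A shRNA libraries and 27 and 31 in the control libraries. Its pooled reads after knockdown were 1.77% of the control level (95% exact conditional binomial interval 0.0440% to 10.3%, counting error only), and the call passed (log2 fold change −5.51, SE 0.69, edgeR adjusted p = 8.3e-06). CDKN2A and CDKN2B were the only members lower by 16-fold or more, a size that 1.96% of all genes tested reached. With each library left out in turn CDKN2A stayed between −4.54 and −4.11, and CDKN2B stood at −4.71 without KDM1A shRNA library 1 and at −7.84 without library 2, where the 0 reads of the remaining library leave the size to the prior count of the fit.

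Genes beside CDKN2A in 9p21 were lower as well. In the list of 10 such genes, 3 of 4 tested were lower and 0 higher, where 28.8% of all genes were lower. MTAP, the methylthioadenosine phosphorylase next to CDKN2A, had 15 and 14 reads in KDM1A shRNA libraries against 271 and 256 in controls. KLHL9, a ubiquitin ligase adaptor, had 8 and 9 reads against 290 and 293. ELAVL2, an RNA-binding protein of neurons, had 2 and 1 reads against 44 and 40. These genes moved with CDKN2A by similar factors, at 5.65%, 2.98% and 3.71% of control. For them too, an effect of the KDM1A shRNA and a difference in cells between the groups' cultures cannot be told apart. MLLT3 stood at 82.8% of control and was not called (184 and 227 reads against 280 and 229). DMRTA1 had 1 read in 1 control library, IFNA1, IFNA2, IFNB1, IFNE and C9orf53 had 0 reads in all 4 libraries, and the antisense RNA CDKN2B-AS1, whose exons overlap CDKN2A, had 0 and 0 reads against 10 and 3.

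Most of the neuronal markers that could be tested were lower. Of 12 genes in that list 6 were tested, with a median log2 fold change of −3.31. INA, NEFL, NEFM and SYP were lower (66.7%), TUBB3 was higher (16.7%) and SNAP25 was not called, where 28.8% of all genes were lower and 27.3% higher. The list's summed level was 27.4 and 31.3 CPM in KDM1A shRNA libraries against 76.1 and 74.4 CPM in control libraries. Most of that difference was NEFM, a neurofilament gene, with 18 and 15 reads against 1158 and 1005. Without it the sums were 26.7 and 30.7 CPM against 32.9 and 32.9 CPM. Most of what remained was TUBB3, at 25.3 and 29.5 CPM against 22.2 and 23.3 CPM. NEFL had 0 and 1 reads against 116 and 99, and INA had 4 and 1 against 99 and 83. With NEFM, these made 3 of the 6 tested genes lower by 16-fold or more, a size that 1.96% of all genes tested reached. DCX and ELAVL4 had 0 reads everywhere. The part of these transcripts in the low values of CDKN2A and CDKN2B was not tested.

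The other INK4 genes did not follow. CDKN2C (chromosome 1, 51426417 to 51440306, plus strand of GRCh37) had 1214 and 1299 reads in KDM1A shRNA libraries and 704 and 610 in controls, a rise to 50.5 ± 0.24 CPM against 25.7 ± 0.81 CPM in control cells (log2 fold change 0.97, SE 0.06, edgeR adjusted p = 8.2e-09). CDKN2D had 502 and 626 reads against 630 and 519 and was not called (0.01, SE 0.09). Scaled to transcript length, CDKN2C held 75.5% of the INK4 total in KDM1A shRNA cells and 47.0% in control cells, while CDKN2A held 0.970% and 23.8%. The summed INK4 level was 66.2 and 68.4 CPM per kilobase in KDM1A shRNA libraries against 55.5 and 54.5 in controls. Without CDKN2A and CDKN2B, whose control reads go against the line's genotype, it was 65.7 and 67.6 CPM per kilobase against 42.9 and 40.3.

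The CIP/KIP inhibitors changed little. CDKN1A, the p53-induced inhibitor, had 4319 and 4525 reads in KDM1A shRNA libraries and 4382 and 4310 in control libraries, with overlapping groups and no call (log2 fold change 0.06, SE 0.05), although it passed as higher without control library 2 (edgeR adjusted p = 0.0028). CDKN1B, which holds CDK2 inactive in resting cells, had 1222 and 1332 reads against 1484 and 1344 (−0.11, SE 0.05, edgeR adjusted p = 0.093). CDKN1C stood at −0.18 (SE 0.11) and was not called. Only CDKN3, a phosphatase that removes the activating phosphate of CDKs, rose, with 1374 and 1539 reads against 1207 and 1091 (0.38, SE 0.06, edgeR adjusted p = 3.9e-05). CDKN1A held 75.9% of the length-scaled CIP/KIP level in KDM1A shRNA cells and 73.4% in control cells.

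The D cyclins, the mitogen-responsive activators of CDK4 and CDK6, moved in both directions. CCND1 (chromosome 11, 69455924 to 69469242, plus strand of GRCh37) had 10474 and 11641 reads in KDM1A shRNA libraries against 7965 and 7551 in controls. It rose to 444 ± 9.78 CPM, against 304 ± 9.80 CPM in control cells (log2 fold change 0.55, SE 0.04, edgeR adjusted p = 1.9e-08). CCND2 (chromosome 12, 4378937 to 4414519, plus strand of GRCh37) had 161 and 162 reads against 575 and 488, and its level fell to 6.50 ± 0.31 CPM against 20.8 ± 0.96 CPM in control cells (−1.68, SE 0.10, edgeR adjusted p = 3.4e-09). The groups stood apart for both genes, in opposite directions.

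CCND3, the D cyclin of highest length-scaled level, was slightly higher, with 11502 and 12233 reads against 11345 and 10903 (0.13, SE 0.04, edgeR adjusted p = 0.0095). That call was lost without KDM1A shRNA library 1 (edgeR adjusted p = 0.15) or library 2 (0.089). Per transcript length CCND3 held 69.0% of the D cyclin level in KDM1A shRNA cells and 74.2% in control cells, CCND1 held 30.7% and 24.7%, and CCND2 held 0.293% and 1.10%. CCND2 therefore was a minor D cyclin in both groups.

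The kinase partners of the D cyclins hardly moved. CDK4 had 3999 and 4137 reads in KDM1A shRNA libraries and 4680 and 4203 in controls (log2 fold change −0.09, SE 0.04, edgeR adjusted p = 0.075), and it passed as lower without control library 1 (0.049) or control library 2 (0.018). CDK6 had 2541 and 2791 reads against 3334 and 2780 and was called lower (−0.16, SE 0.05, edgeR adjusted p = 0.012), a call that did not hold without control library 1 (0.054), KDM1A shRNA library 1 (0.13) or KDM1A shRNA library 2 (0.077). CDK4 held 90.5% of the length-scaled level of both kinases in KDM1A shRNA cells and 90.1% in control cells.

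**Figure D3:**
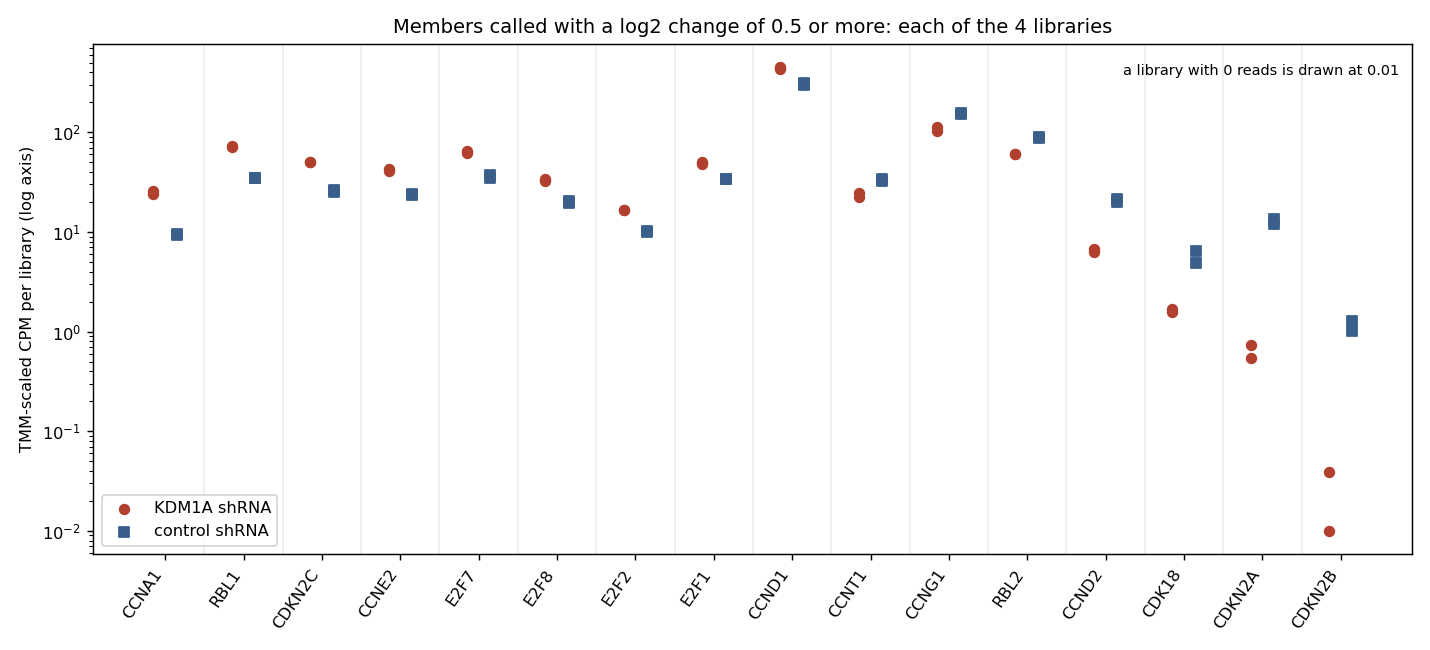
TMM-scaled CPM, on a log axis, in each library for the 16 members called with an absolute log2 change of 0.5 or more, KDM1A shRNA libraries as red circles and control libraries as blue squares. The 2 libraries of a group lie close together, and the groups are widest apart for CDKN2B, CDKN2A, CDK18 and CCND2.

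The pocket proteins, which bind E2F factors and repress their targets, moved in different directions. RBL1 (chromosome 20, 35624752 to 35724400, minus strand of GRCh37), which is known to be higher in cycling than in resting cells, had 1688 and 1868 reads in KDM1A shRNA libraries against 927 and 853 in controls. Its level was 71.4 ± 1.36 CPM in KDM1A shRNA cells and 34.9 ± 0.39 CPM in control cells (log2 fold change 1.03, SE 0.06, edgeR adjusted p = 1.2e-09). RBL2 (chromosome 16, 53467889 to 53525560, plus strand of GRCh37), the pocket protein of resting cells, had 1439 and 1547 reads against 2363 and 2181 and fell to 60.0 ± 0.090 CPM, against 89.1 ± 1.18 CPM in control cells (−0.57, SE 0.05, edgeR adjusted p = 1.7e-07). The retinoblastoma gene RB1 itself had 2724 and 2869 reads against 2768 and 2334 and was barely higher (0.17, SE 0.05, edgeR adjusted p = 0.0068), a call that did not hold without KDM1A shRNA library 1 (0.099).

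Scaled to transcript length, RBL1 held 25.9% and RBL2 25.5% of the pocket protein level in KDM1A shRNA cells, against 13.5% and 40.4% in control cells, and RB1 held 48.6% and 46.1%. The summed level was 48.6 and 48.4 CPM per kilobase against 45.9 and 44.9, so the makeup of the family differed more than its total. These shares were not tested.

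**Figure D4:**
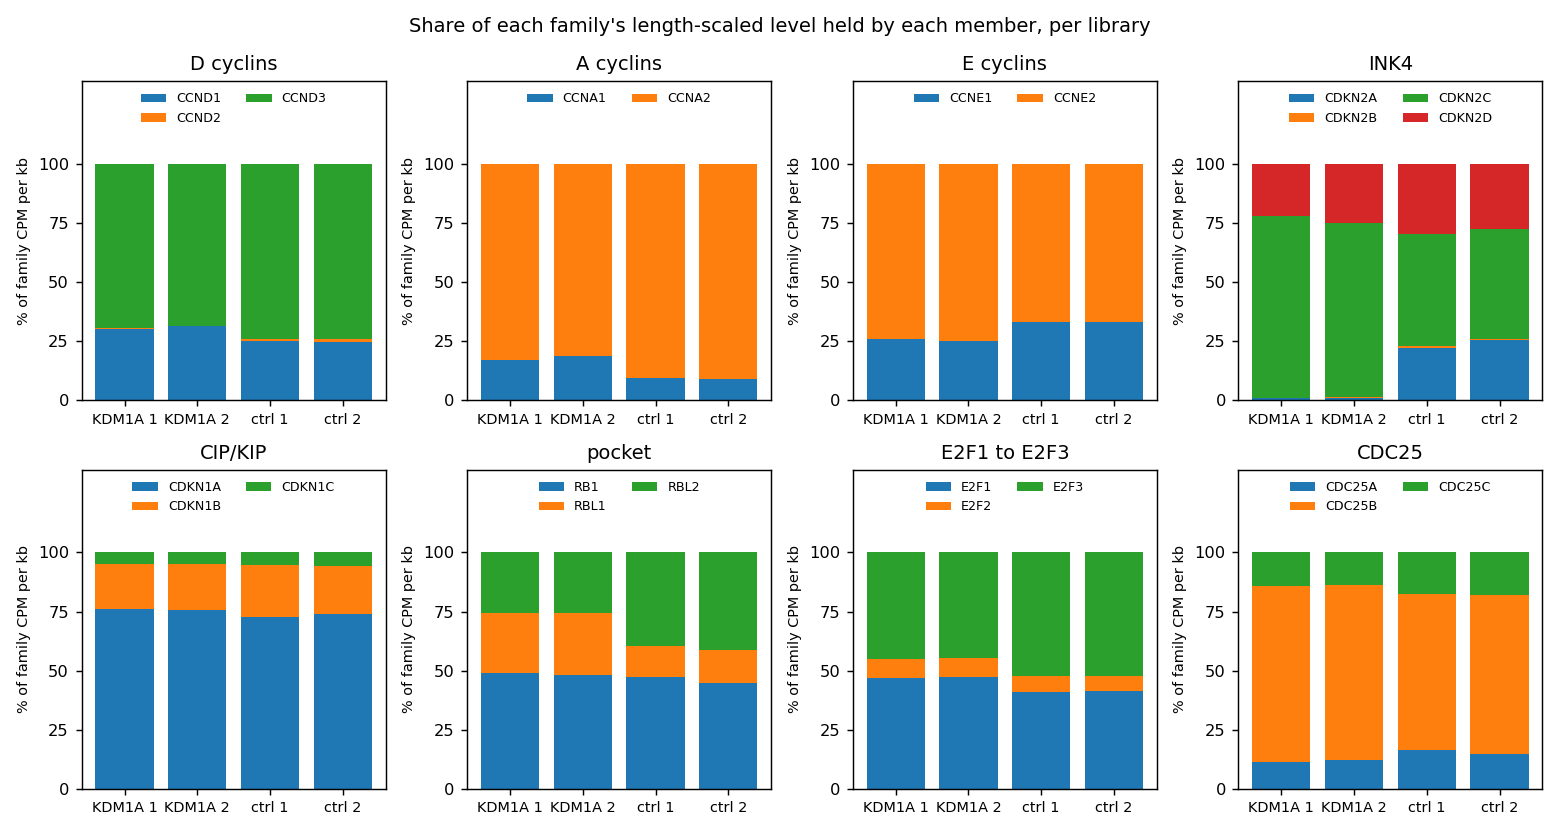
Share of each family's summed level (TMM-scaled CPM per kilobase of canonical transcript, in percent) held by each member, with 1 stacked bar per library, KDM1A shRNA libraries left and control libraries right. Bars of the same group are alike. CDKN2A holds a small share of the INK4 family in KDM1A shRNA libraries and a larger one in control libraries, and RBL1 takes the same share as RBL2 in KDM1A shRNA libraries.

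The E2F factors rose in 6 of 8 members (75%) and fell in 0, where 27.3% of all genes tested were higher and 28.8% lower, with a median log2 fold change of 0.39. Among the activators, which drive entry into S phase, E2F1 had 1164 and 1296 reads in KDM1A shRNA libraries against 902 and 819 in controls (log2 fold change 0.55, SE 0.06, edgeR adjusted p = 1.9e-06). E2F2 had 399 and 425 reads against 274 and 244 (0.71, SE 0.09, edgeR adjusted p = 1.2e-05). E2F3 was called with the smaller value of 0.13 (SE 0.05, edgeR adjusted p = 0.030), but not without KDM1A shRNA library 1 (0.17) or library 2 (0.19). Activators thus rose by unequal amounts, and E2F1 held 47.1% of the length-scaled level of E2F1 to E2F3 in KDM1A shRNA cells and 41.1% in control cells.

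The atypical repressors E2F7 and E2F8, themselves targets of E2F1 that dampen its output, also rose. E2F7 (chromosome 12, 77415028 to 77459349, minus strand of GRCh37) had 1553 and 1584 reads in KDM1A shRNA libraries against 935 and 915 in controls (log2 fold change 0.80, SE 0.06, edgeR adjusted p = 5.4e-08). E2F8 had 811 and 845 reads against 546 and 478 (0.73, SE 0.07, edgeR adjusted p = 6.0e-07). Their groups stood clear of each other, and their values were close to that of E2F2 given the standard errors. Of the E2F4 to E2F6 repressors, E2F4 and E2F5 work with pocket proteins and E2F6 without them. E2F4 rose slightly (0.24, SE 0.05, edgeR adjusted p = 0.00088), E2F5 stood at −0.14 (SE 0.09) without a call but passed as lower without control library 2 (0.033), and E2F6 stood at 0.06 (SE 0.09).

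Promoters of 3 members that rose together, RBL1, E2F1 and E2F2, are shown because they hold letters of the E2F site close to the gene start, and that of CDC25A, which was lower, because it holds the same letters. The sequences are RefSeq windows of build GRCh38.p14 running 5′ to 3′ on the gene's strand from 250 bases before the gene start to 50 after it, with capitals marking each match. The words searched on both strands were TTTGGCGC, TTTCCCGC, TTTCGCGC and TTTGCCGC. The windows lie on the minus strand at chr20:37095948-37096247 (RBL1), chr20:33686336-33686635 (E2F1), chr1:23531184-23531483 (E2F2) and chr3:48188368-48188667 (CDC25A).
RBL1: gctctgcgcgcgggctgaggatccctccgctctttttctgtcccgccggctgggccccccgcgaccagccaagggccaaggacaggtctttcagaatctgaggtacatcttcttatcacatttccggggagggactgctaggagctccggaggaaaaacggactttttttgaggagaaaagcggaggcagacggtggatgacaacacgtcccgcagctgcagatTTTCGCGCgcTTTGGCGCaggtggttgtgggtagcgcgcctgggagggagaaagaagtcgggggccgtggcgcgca
E2F1: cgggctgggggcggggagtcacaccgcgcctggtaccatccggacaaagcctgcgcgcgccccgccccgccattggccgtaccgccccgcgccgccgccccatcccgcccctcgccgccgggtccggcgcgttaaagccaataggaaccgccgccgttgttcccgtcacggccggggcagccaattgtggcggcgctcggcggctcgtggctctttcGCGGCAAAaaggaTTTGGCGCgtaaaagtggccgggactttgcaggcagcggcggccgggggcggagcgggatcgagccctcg
E2F2: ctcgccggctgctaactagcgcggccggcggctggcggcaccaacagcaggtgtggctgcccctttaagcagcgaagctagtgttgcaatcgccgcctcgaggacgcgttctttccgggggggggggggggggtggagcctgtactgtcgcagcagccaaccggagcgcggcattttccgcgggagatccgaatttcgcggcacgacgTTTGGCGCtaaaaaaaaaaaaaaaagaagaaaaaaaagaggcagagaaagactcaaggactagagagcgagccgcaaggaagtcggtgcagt
CDC25A: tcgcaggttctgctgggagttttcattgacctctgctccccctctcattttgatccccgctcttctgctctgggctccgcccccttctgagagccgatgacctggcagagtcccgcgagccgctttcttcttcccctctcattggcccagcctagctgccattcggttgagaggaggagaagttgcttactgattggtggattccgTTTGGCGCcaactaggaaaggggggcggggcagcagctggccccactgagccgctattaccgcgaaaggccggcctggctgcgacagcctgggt

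RBL1 and E2F1 held 2 matches each, starting 26 and 16 bases before the start of RBL1 and 33 and 20 bases before that of E2F1. E2F2 held 1 match 42 bases before its start and CDC25A 1 match 44 bases before its own. RefSeq windows were matched for 59 of the 68 members. CCND1, CCNE2, E2F8, PKMYT1 and WEE1, all called higher, had no window, nor had CCND2, CDK2, CDKN1C and E2F5. At least 1 window held an E2F word in 5 of 22 members called higher (22.7%), in 3 of 17 called lower (17.6%) and in 1 of 17 not called (5.88%), against 3.99% of 27305 genes. The CHR element of mitotic genes, TTTGAA, was found in 5 of the 22 and 3 of the 17 lower ones, against 18.2% of all genes, and CCAAT in 14 and 8 of them, against 39.7%. At 11 distinct sites, 1 of them seen in both windows of CDK1, 0 E2F matches overlapped a CHR or CCAAT match. Genes can have several windows, and a match describes the letters of a window and not a bound site. The 27305 genes were not limited to those tested here and had 35116 windows, where the 59 members had 89. Their shares are therefore not like for like.

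The cyclins and CDKs of S phase and mitosis rose in 7 of 9 members tested (77.8%) and fell in 0, against 27.3% higher and 28.8% lower among all genes. CCNA1 (chromosome 13, 37005657 to 37017007, plus strand of GRCh37), an A cyclin best known from the male germ line, showed the widest rise of any member, with 574 and 666 reads in KDM1A shRNA libraries against 257 and 226 in controls. Its level was 24.9 ± 1.30 CPM in KDM1A shRNA cells and 9.46 ± 0.20 CPM in control cells (log2 fold change 1.40, SE 0.09, edgeR adjusted p = 7.3e-09). CCNA2, the A cyclin of somatic cells, had 4429 and 4624 reads against 3939 and 3612 (0.30, SE 0.04, edgeR adjusted p = 1.8e-05). CCNA2 remained the major A cyclin, with 82.2% of the length-scaled A cyclin level in KDM1A shRNA cells and 90.8% in control cells.

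The E cyclins, which activate CDK2 at the start of S phase, differed in size of change. CCNE2 had 986 and 1100 reads in KDM1A shRNA libraries against 638 and 570 in controls (log2 fold change 0.82, SE 0.07, edgeR adjusted p = 7.4e-08). CCNE1 had 249 and 271 reads against 232 and 204 (0.29, SE 0.11, edgeR adjusted p = 0.029) and was called higher, but not without control library 2 (0.064), KDM1A shRNA library 1 (0.095) or KDM1A shRNA library 2 (0.12), nor in DESeq2 (0.19). CDK2, their kinase, had 2419 and 2625 reads against 2885 and 2519 and was not called (−0.06, SE 0.04). CCNE2 held 74.6% of the length-scaled E cyclin level in KDM1A shRNA cells and 66.9% in control cells.

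Among the mitotic regulators, CCNB1 had 7094 and 7599 reads in KDM1A shRNA libraries against 6378 and 5872 in controls (log2 fold change 0.30, SE 0.04, edgeR adjusted p = 6.7e-06). CDK1, the kinase it activates, had 4805 and 5292 reads against 4693 and 4163 (0.23, SE 0.04, edgeR adjusted p = 0.00018). CCNB2 rose by a like amount (0.32, SE 0.05). Each group's libraries were apart from the other's for these genes, although the changes were only 1.17-fold for CDK1 to 1.25-fold for CCNB2. CCNB3, a meiotic cyclin, was near the floor, with 24 and 17 reads against 20 and 10, and CDK3 was listed at 0.

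Of the enzymes that set the phosphorylation of CDK1, WEE1 rose (1373 and 1438 reads in KDM1A shRNA libraries against 1108 and 946 in controls, log2 fold change 0.49, SE 0.06, edgeR adjusted p = 5.1e-06), and so did PKMYT1 (0.35, SE 0.08, edgeR adjusted p = 0.0017). CDC25B, the phosphatase that acts first at mitotic entry, rose too, with 5026 and 5566 reads against 4179 and 4063 (0.40, SE 0.04, edgeR adjusted p = 2.3e-06). The inhibitory kinases and an activating phosphatase were thus higher side by side. CDC25C was not called (−0.13, SE 0.07) but passed as lower without control library 1 (0.039). CDC25A, which acts at S phase entry, was called lower (−0.18, SE 0.06, edgeR adjusted p = 0.028), and this call was lost without control library 1 (−0.15, 0.052) or KDM1A shRNA library 1 (−0.11, 0.35).

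Cyclins and CDKs that act on RNA polymerase II and splicing fell in 5 of 13 members (38.5%) and rose in 2 (15.4%), where 28.8% of all genes were lower and 27.3% higher. Calls in either direction made up 53.8%, near the background of 56.1%. CCNT1, the cyclin of the elongation factor P-TEFb, showed the largest fall among them, with 589 and 573 reads in KDM1A shRNA libraries against 906 and 792 in controls (log2 fold change −0.51, SE 0.07, edgeR adjusted p = 3.2e-05). Its kinase CDK9 (0.03, SE 0.05) and the related CCNT2 (−0.02, SE 0.06) were not called. CDK7, the kinase of TFIIH that also activates other CDKs, fell (−0.36, SE 0.06, edgeR adjusted p = 6.3e-05), while its cyclin CCNH stood at −0.09 (SE 0.06) and passed as lower without control library 2 (0.040). In both pairs a single partner was called.

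CDK19 of the Mediator kinase module fell (−0.37, SE 0.08), whereas its paralog CDK8 stood at −0.21 (SE 0.09) and passed as lower without control library 2 (0.022) or with the replicate number as a block (0.046), and their cyclin CCNC stood at 0.07 (SE 0.05). CCNL1, a cyclin linked to splicing, fell (−0.40, SE 0.06), and CCNL2 was called slightly lower (−0.14, SE 0.05), a call that did not hold without control library 2 (edgeR adjusted p = 0.078), KDM1A shRNA library 1 (0.21) or KDM1A shRNA library 2 (0.10). CDK12 (0.16, SE 0.05) and its cyclin CCNK (0.12, SE 0.05) were called slightly higher, and both calls were lost without KDM1A shRNA library 1 (edgeR adjusted p = 0.12 for CDK12 and 0.18 for CCNK) or library 2 (0.064 and 0.20). CDK13 stood at 0.02 (SE 0.06) and passed as higher without control library 1 (0.030).

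Most of the cyclins of other roles fell, 5 of 7 tested (71.4%), and 1 rose (14.3%). Among all genes 28.8% were lower and 27.3% higher. CCNG1, a p53 target, had 2489 and 2897 reads in KDM1A shRNA libraries against 4216 and 3739 in controls (log2 fold change −0.53, SE 0.05, edgeR adjusted p = 2.3e-07). CCNG2, which is high in cells that have left the cycle, fell as well (−0.46, SE 0.05, edgeR adjusted p = 1.4e-06). CCNI (−0.34, SE 0.04) and CCNJ (−0.36, SE 0.08) were lower, and CCNO was called lower (−0.49, SE 0.14), a call that did not hold without control library 2 (edgeR adjusted p = 0.064) or KDM1A shRNA library 1 (0.068). CCNF, the cyclin that is also an F-box protein, was called higher (0.19, SE 0.06), but not without KDM1A shRNA library 2 (0.13), and CCNY was not called.

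Among the remaining CDKs, CDK18 (chromosome 1, 205473724 to 205501921, plus strand of GRCh37), a PCTAIRE kinase, fell to 38 and 44 reads in KDM1A shRNA libraries, against 132 and 157 in control libraries. Its level was 1.65 ± 0.084 CPM in KDM1A shRNA cells and 5.70 ± 1.09 CPM in control cells (log2 fold change −1.78, SE 0.20, edgeR adjusted p = 2.6e-06). Its relatives were called the other way. CDK16 was higher (0.31, SE 0.04, edgeR adjusted p = 1.6e-05), and CDK17 was called slightly higher (0.15, SE 0.06, edgeR adjusted p = 0.042), a call that did not hold without control library 1 (0.061), KDM1A shRNA library 1 (0.15) or KDM1A shRNA library 2 (0.22). CDK14 was called lower (−0.31, SE 0.09), but not without KDM1A shRNA library 2 (0.12). CDK5 stood at 0.20 (SE 0.10) and passed as higher without control library 2 (0.016), while CDK10 and CDK20 were not called. CDK15 had 9 and 16 reads against 6 and 6 and CCNI2 had 5 and 8 against 7 and 8, too few to test.

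Other genes of the pathway were read from lists written with earlier results of these data known. Of 24 targets of E2F, 19 were called higher and 1 lower, with a median log2 fold change of 0.36, led by the helicase subunit MCM3 (0.64, SE 0.04), the thymidylate synthase TYMS (0.66), the polymerase subunit POLA1 (0.72) and the DNA methylation reader UHRF1 (0.76). Of 10 genes listed as MuvB, DP and MYB partners, 6 were called higher and 1 lower (median 0.27). MYBL1 (0.93, SE 0.07), FOXM1 (0.45), the E2F partner TFDP1 (0.34) and MYBL2 (0.30) were among those higher. Against a background of 27.3% called higher, these shares were 79.2% and 60.0%. The count of lower E2F targets became 0 without control library 2, KDM1A shRNA library 1 or KDM1A shRNA library 2, and that of lower partners became 2 without control library 1.

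Of 16 checkpoint kinases and CDK1 switch regulators, 9 were called higher (56.2%) and 4 lower (25%, median 0.16), or 1 lower without KDM1A shRNA library 2, where the background was 27.3% and 28.8%. CHEK1 (0.79, SE 0.05), the 14-3-3 protein SFN (0.62), PLK1 (0.37) and ARPP19, which inhibits the phosphatase opposing CDK1 (0.29), were higher. Of 22 ubiquitin ligase genes that control cyclins and inhibitors, 9 were called higher and 4 lower (median 0.09). The 59.1% called either way was near the background of 56.1%. SKP2, the F-box protein that targets CDKN1B (0.57, SE 0.06), CDC20 (0.50) and CDC27 (0.36) were higher. KLHL9 of 9p21 was lower (−5.04, SE 0.21), with the limit given above for the 9p21 genes. Of 26 CDK partners outside the name rule, 9 were called higher and 5 lower (median 0.06), and the 53.8% called either way was again near the background, among them CABLES1 (0.77, SE 0.09), CDKL1 (0.73) and the P-TEFb inhibitor HEXIM1 (0.37) higher and CCNB1IP1 lower (−0.58, SE 0.05). The ubiquitin ligase counts became 4 higher and 2 lower without KDM1A shRNA library 1 and 3 higher and 2 lower without library 2, and the lower CDK partners became 3 without control library 2 or either KDM1A shRNA library.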

How the data were processed

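Each library came as 1 deposited file of raw counts, whole numbers of reads for every gene symbol, which the authors had not normalized. CASAVA 1.8.2, TopHat2 2.0.8b and HTSeq are named with build hg19 in the submitters' processing notes; the strand setting and the annotation release are not given in the sources used here. Alignments that were not unique had been set aside, so near-identical genes are uncertain, as are the 12 members whose exons overlap another listed gene, RBL2, CCNE2, CCNA2, CDK2 and CDK4 among them (GENCODE v44lift37, GRCh37). The 5 summary lines of HTSeq were left out, and genes held 59.0% to 61.1% of each file's total.

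The counts were fitted in R 4.3.3 with edgeR 4.0.16 (TMM, filterByExpr with minimum count 10 and minimum total 15, quasi-likelihood F-test, group as the only term, 2 residual degrees of freedom). P-values were adjusted by Benjamini-Hochberg over 14012 genes, with a threshold of 0.05, and SEs were derived from the log2 fold change and its F statistic. Levels are TMM-scaled CPM. Levels per kilobase used the length of the Ensembl canonical transcript, which may not be the transcript that was counted. With 2 libraries a group no exact permutation test can reach the threshold, so none was used. Replicate libraries were not copies of each other: within groups the counts varied beyond sampling noise (chi-square per degree of freedom 1.62 for KDM1A shRNA and 4.13 for control).

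The members and the lists were chosen with earlier results of these data known. Reads in every library are given for members called with an absolute log2 change of 0.5 or more, for untested members and for a fixed set of core regulators, and for each list the genes with the smallest p, 4 at most. Alternatives were RLE, upper quartile and library size normalization, scaling to 11 housekeeping genes, a filter of 1 count in total, one of 5 CPM on average, limma-voom (limma 3.58.1), DESeq2 1.42.0, the replicate number as a block and each library left out. Scaling to 20 genes typical of MDA-MB-231 was chosen after seeing the data.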

Additional observations from a re-analysis of the deposited data

How the results depend on the processing

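No called member changed sign under any of the 14 alternatives, and 32 of the 45 called members (19 higher, 13 lower) passed in all that gave a value. The other 13 calls were of 0.49 or less on the log2 scale. Each is named above with a fit, of those that left a library out, in which it did not pass. Such fits take their spread from the other group's pair, so their p-values do not measure the library left out. CCND1 kept a log2 fold change of 0.51 to 0.58 in them, against 0.55 in the main fit. With 1 library left out, 20 to 28 members were higher and 14 to 20 lower. Scaling to housekeeping genes moved the median of all genes by −0.073 and gave 19 higher and 24 lower members, ending the calls of CCNE1, CCNF, RB1, CDK12, CDK17, CCND3, E2F3 and CCNK. Scaling to genes typical of MDA-MB-231, chosen after seeing the data, moved that median by 0.12 and gave 32 higher and 14 lower. DESeq2 called 23 higher and 13 lower.

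Among the pathway lists with every library kept, the higher MuvB, DP and MYB partners numbered 6 in every alternative and the higher E2F targets 17 to 21. The counts below moved by more than 1.5 times in at least 1 alternative. Lower MuvB, DP and MYB partners numbered 0 with MDA-MB-231 scaling. Higher ubiquitin ligase genes numbered 3 with housekeeping scaling, 4 in DESeq2 and 3 to 10 with 1 library left out, and lower ones 2 in DESeq2 and with MDA-MB-231 scaling and 2 to 6 with 1 library left out. Among CDK partners, 15 were higher with MDA-MB-231 scaling and 8 to 11 with 1 library left out, and lower ones numbered 2 with a mean of 5 CPM, 1 in DESeq2, 3 with MDA-MB-231 scaling and 3 to 5 with 1 library left out. Lower checkpoint genes numbered 1 with MDA-MB-231 scaling and 1 to 4 with 1 library left out, and lower E2F targets 0 in DESeq2 and with MDA-MB-231 scaling and 0 to 1 with 1 library left out. The cause was not tested.

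No effect shared by libraries of the same replicate number was seen: the correlation of their deviations across genes was 0.0111. This cannot show whether the libraries were prepared as pairs. With the replicate number as a block, 27 members were higher and 19 lower. CDKN2B, with 0 and 1 reads after knockdown, is limited by depth, as are CCNB3, CDK15 and CCNI2.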
